A study of Mus musculus with 24 samples.

Results

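Prostaglandins and thromboxane are signalling lipids made from arachidonic acid, and the 10 genes described here encode enzymes that make or degrade them in mouse brain. They are Fam213b, which encodes prostamide/prostaglandin F synthase, the cyclooxygenases Ptgs1 and Ptgs2, the synthases Ptgds, Ptges, Ptges2, Ptges3, Ptgis and Tbxas1, and the dehydrogenase Hpgd. The set was chosen by name around Fam213b, which had been selected on its difference between strains in these same libraries, and it forms 10 of the 53465 genes listed. All 10 passed the filter on low counts, Fam213b through its WSB reads alone, and the filter kept 18425 genes. Because the choice rests on this contrast, strain differences of the 10 are given below as descriptions: the calls of the fit over all genes are counted, and they support nothing about the set.

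Reads were counted per gene in RNA labelled as brain from 6 mice of the inbred strain CAST/EiJ and 6 mice of the inbred strain WSB/EiJ. Both are wild-derived; the subspecies is castaneus for CAST/EiJ and domesticus for WSB/EiJ. The study looked for genes expressed differently between strains that differ in infarct volume after occlusion of a cerebral artery, a stroke model; the labels record no surgery, treatment, sex or age for these animals. Each library was run on lanes 5 and 6, and the lanes were summed per animal.

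Cyclooxygenases convert arachidonic acid to the unstable endoperoxide prostaglandin H2, and each terminal synthase turns that intermediate into a different product. In brain these products act on sleep, fever, pain, blood flow and inflammation. Fam213b has a thioredoxin-like fold and reduces prostaglandin H2 to prostaglandin F2alpha, and the corresponding endocannabinoid-derived endoperoxide to prostamide F2alpha. Hpgd, 15-hydroxyprostaglandin dehydrogenase, starts the breakdown of prostaglandins.

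The starts of 3 genes are shown because Fam213b and Hpgd had the lowest log2 fold changes of the 10, CAST over WSB, and Ptgs2 the highest. The windows run from 250 bases before to 50 bases after the RefSeq start (GRCm38.p6), 5′ to 3′ along the gene, and hold the reference sequence, not that of CAST/EiJ or WSB/EiJ. They lie at chr4:154898994-154899293 on the minus strand for Fam213b (RefSeq symbol Prxl2b), chr1:150099781-150100080 on the plus strand for Ptgs2 and chr8:56294302-56294601 on the plus strand for Hpgd. Capitals mark motif letters on either strand.
Fam213b: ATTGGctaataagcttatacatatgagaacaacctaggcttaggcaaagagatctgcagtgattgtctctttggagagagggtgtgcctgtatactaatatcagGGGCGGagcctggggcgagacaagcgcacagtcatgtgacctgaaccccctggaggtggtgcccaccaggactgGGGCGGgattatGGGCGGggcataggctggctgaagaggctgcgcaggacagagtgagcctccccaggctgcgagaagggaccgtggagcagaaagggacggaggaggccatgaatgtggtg
Ptgs2: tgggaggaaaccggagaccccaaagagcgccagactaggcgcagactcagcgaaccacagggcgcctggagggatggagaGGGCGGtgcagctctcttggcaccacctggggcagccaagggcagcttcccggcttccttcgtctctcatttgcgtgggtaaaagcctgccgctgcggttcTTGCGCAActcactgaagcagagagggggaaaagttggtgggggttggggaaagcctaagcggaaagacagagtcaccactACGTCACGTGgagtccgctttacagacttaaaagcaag
Hpgd: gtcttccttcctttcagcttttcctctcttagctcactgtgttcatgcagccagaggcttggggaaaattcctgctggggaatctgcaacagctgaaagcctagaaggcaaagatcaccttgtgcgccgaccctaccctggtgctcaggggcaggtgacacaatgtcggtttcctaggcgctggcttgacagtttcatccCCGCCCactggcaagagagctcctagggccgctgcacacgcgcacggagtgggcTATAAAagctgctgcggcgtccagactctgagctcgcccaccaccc
The Fam213b window held GGGCGG, the letters of an Sp1-type GC box, at window bases 105, 179 and 191, and CCAAT on the opposite strand at base 1. In the Ptgs2 window ACGTCA, the core of a cAMP response element, at base 263 overlapped the E-box CACGTG at base 267, with GGGCGG at base 81 and the C/EBP-type TTGCGCAA at base 182. Hpgd had TATAAA at base 255 and, upstream of it, GGGCGG on the opposite strand. Of 32851 windows of this length, 35.7% held GGGCGG, 37.4% CCAAT, 13.6% TATAAA, 7.51% ACGTCA, 7.15% CACGTG and 0.183% TTGCGCAA. Of the 10 genes 9 had a window in the table, and Ptgis had none.

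Reads in genes ranged from 38771135 to 46513232 per CAST animal and from 32982569 to 45772849 per WSB animal, and each of the 10 genes had between 1197 and 150828 reads over all animals. Alignments that were not unique made up 15.6% to 16.1% in CAST brains and 17.0% to 17.5% in WSB, ranges that did not overlap. Neuronal markers summed to 5282 to 6042 CPM (reads per 1000000 reads in genes, scaled by TMM factors) in CAST brains and 5787 to 6745 CPM in WSB, and were abundant in every animal, although Tubb3 and Nefl were listed at 0. Both lie wholly inside other listed genes, and 99.5% of the 12466 genes placed so had no read in any animal, against 26.1% of the other genes, so a 0 for such a gene says nothing of its expression. CAST_142 stood apart, with 1226 CPM of cerebellar granule cell genes, against 40.9 CPM in CAST_170 and at most 26.1 CPM in any WSB animal. CAST_142 also had the lowest sum of striatal markers, 285 CPM. WSB_100, also set apart by earlier work on these files, had the lowest sum of choroid plexus markers, 56.6 CPM. Where leaving out both CAST_142 and WSB_100 changed the call of a named gene, or moved a called log2 fold change by over 1.5 times, the value is given.

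Of the 10 genes, 2 were higher and 4 lower in CAST, and 4 did not pass (edgeR quasi-likelihood fit over all genes, Benjamini-Hochberg adjusted p under 0.05, here "called"). This is 60% of the set, where 42.7% of all tested genes were called, 21.5% higher and 21.2% lower. For the same 6 genes the values of CAST and WSB animals did not overlap, which held for 27.1% of all tested genes. The median log2 fold change, CAST over WSB, was -0.14 over the 10 and 0.00464 over all tested genes, and the median size was 0.76 over the 10 and 0.22 over all tested genes. Nothing is read from these shares, since the set was chosen with the contrast known. The 6 were Ptgs2 and Ptges3, which were higher, and Fam213b, Ptgds, Ptgis and Hpgd, which were lower. Ptges3 changed direction when the reads of a pseudogene copy were added, and the counts were then 1 higher and 5 lower.

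**Figure D1:**
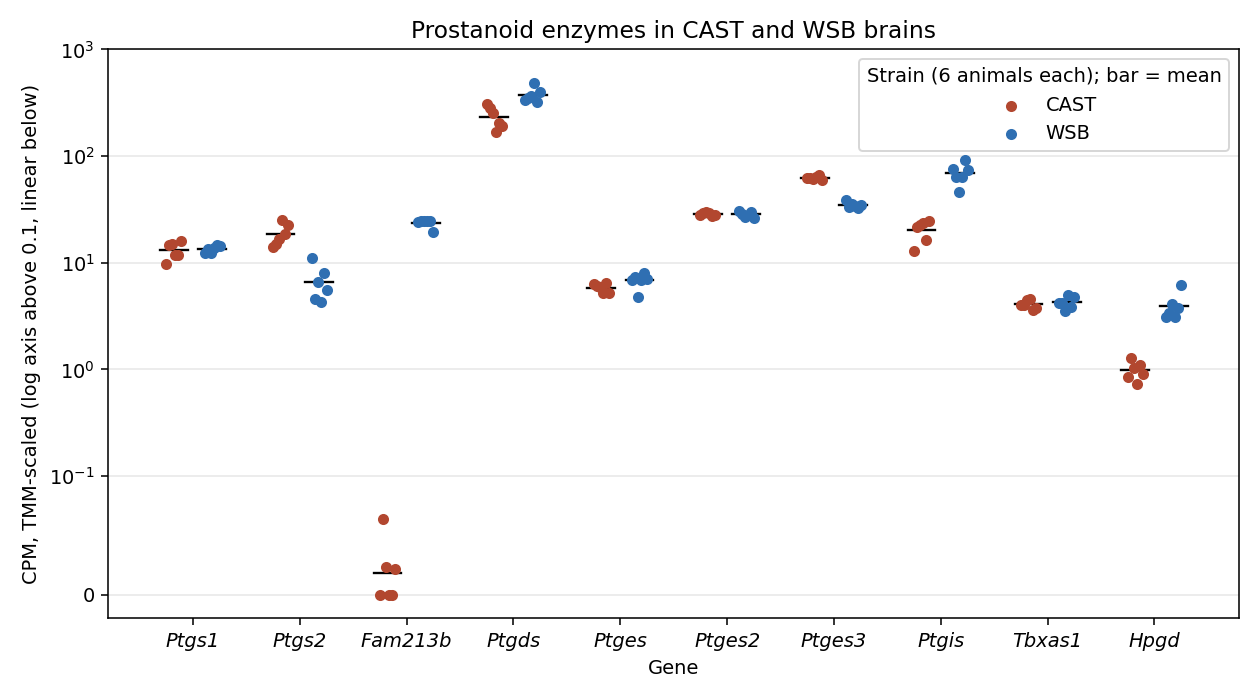
CPM of the 10 prostanoid enzyme genes in each animal (y axis, logarithmic above 0.1 CPM and linear below), with CAST left of WSB for each gene, 1 point per animal and a bar at the mean of 6. Fam213b was at or below 0.0638 CPM in every CAST animal and at or above 19.6 CPM in every WSB animal; the ranges of Ptgs1, Ptges, Ptges2 and Tbxas1 overlapped.

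Fam213b (ENSMUSG00000029059, chr4:154895504-154899135, minus strand, GRCm38) was almost without reads in CAST. CAST_170 had 3 reads, CAST_200 and CAST_203 had 1 each, and CAST_142, CAST_201 and CAST_202 had 0, for a total of 5 reads. WSB animals had 765 to 1158 reads, 5693 in all. In CPM the lowest, median and highest values were 0, 0.0109 and 0.0638 in CAST brains and 19.6, 24.4 and 24.8 in WSB. The WSB animals other than WSB_100 lay between 24.3 and 24.8 CPM, and WSB_100 was the lowest. The mean was 0.0182 ± 0.0250 CPM in CAST brains and 23.7 ± 2.04 CPM in WSB (SD, n = 6 each). Pooled over animals, the scaled level was 0.0194 CPM in CAST brains and 23.8 CPM in WSB, a WSB over CAST ratio of 1222 with an exact 95% counting interval of 523 to 3765, which covers counting error only. The fitted log2 fold change was -10.05 ± 0.26 (SE), the 9th largest in size among the called genes; without CAST_142 and WSB_100 it was -9.86. None of its 1017 transcript 32-mers (runs of 32 bases) occurs in a transcript of another gene. Of its body, 99.3% lies outside other genes, the rest being the end of Mmel1. Whether the CAST gene differs from the reference in a way that keeps reads from aligning was not tested.

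Genes beside Fam213b had reads in both strains. Of 11 tested genes with a start within 250 kb, 2 were called, both lower in CAST, where 42.7% of all tested genes were called. Over the 11, log2 fold changes ran from -0.61 to 0.46 with a median of -0.10. Pank4, a pantothenate kinase family member whose start is 65.0 kb away, was at 48.1 ± 4.57 CPM in CAST brains and 47.4 ± 2.51 CPM in WSB, and Rer1, a Golgi protein that returns cargo to the endoplasmic reticulum, at 45.5 ± 2.84 CPM in CAST brains and 43.9 ± 0.670 CPM in WSB (SD, n = 6 each). The overlapping neighbour Mmel1, a membrane metalloendopeptidase, was at 1.275 ± 0.530 CPM in CAST brains and 1.96 ± 0.233 CPM in WSB (adjusted p = 0.0463 by edgeR). Hes5, a Notch target and neural progenitor factor, was at 1.90 ± 0.452 CPM in CAST brains and 2.80 ± 0.728 CPM in WSB (adjusted p = 0.0419 by edgeR). Both calls sat near the threshold and were lost when single animals were left out, Mmel1 with CAST_170, CAST_200, CAST_201, CAST_203, WSB_120, WSB_135, WSB_138, WSB_147 or WSB_169 (adjusted p 0.0558 to 0.0958) and Hes5 with CAST_142, CAST_201, CAST_202, WSB_138, WSB_147, WSB_169 or WSB_100 (adjusted p 0.0504 to 0.0935). Other neighbours gained a call, lower in CAST, when animals were left out, Pex10 without CAST_142, Morn1 without CAST_142 or WSB_138, and Tnfrsf14 without CAST_170. Without CAST_142 and WSB_100 together, Pex10 (log2 fold change -0.25) and Morn1 (-0.18) were called and Hes5 (-0.33) was not. The count of Hes5 is uncertain, since 25.5% of its 32-mers occur in Gm20421.

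**Figure D2:**
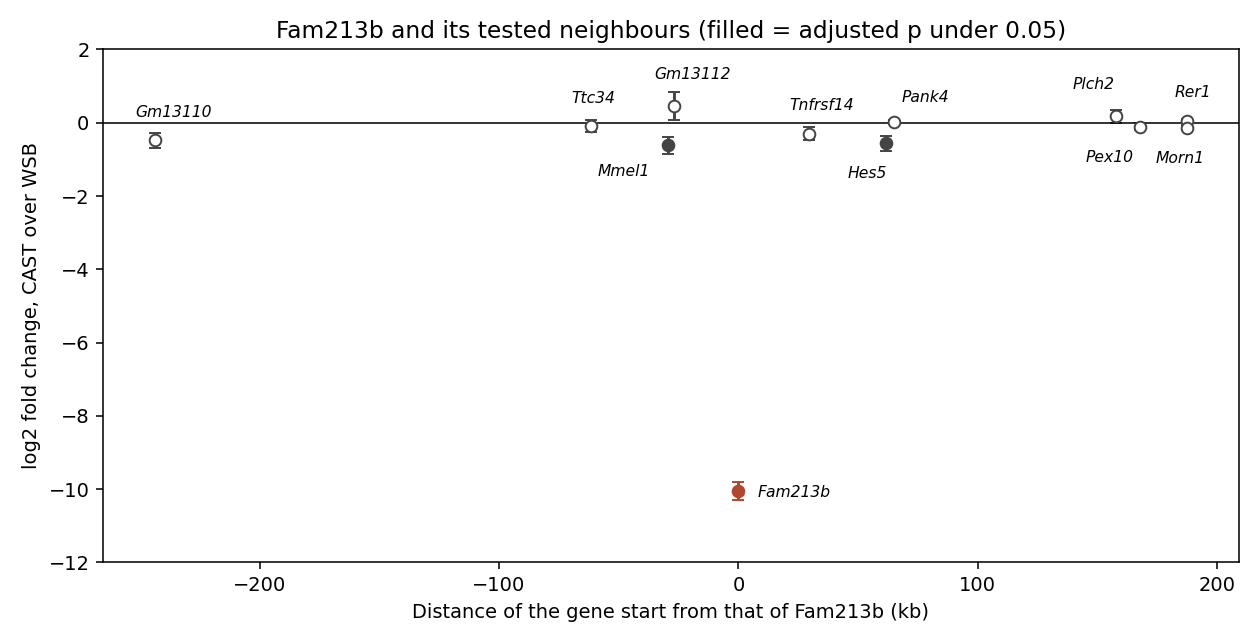
log2 fold change, CAST over WSB, of Fam213b and the 11 tested genes whose start lies within 250 kb (y axis; bars, SE), by distance between gene starts in kb (x axis), with called genes filled. Fam213b lies at -10.05 and the neighbours between -0.61 and 0.46.

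The genes whose log2 CPM over the 12 animals was most like that of Fam213b were Catspere2 (Pearson r = 0.998), Cox7a2l (0.998), Cfl1 (0.997), Rplp0 (0.997) and Trmt10a (0.997), on chromosomes 1, 17, 19, 5 and 3. The 12 points fall into the 2 strains, so the measure picks genes that differ between strains with little spread inside each. Their log2 fold changes, between -2.09 for Cox7a2l and -1.12 for Cfl1, were far smaller in size than that of Fam213b. Sequence shared with other genes was not measured for these genes, so their counts may be uncertain.

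The cyclooxygenases differed from each other. Ptgs1, the constitutive form (ENSMUSG00000047250, chr2:36230426-36252272), was at 9.67, 13.35 and 16.2 CPM (lowest, median, highest) in CAST brains and 12.4, 13.7 and 14.6 CPM in WSB. The CAST values enclosed the WSB values, CAST_142 was the lowest, and the log2 fold change was -0.03 ± 0.11 (SE). Ptgs2, the inducible form, which excitatory neurons of the forebrain express with activity (ENSMUSG00000032487, chr1:150100031-150108227), was at 13.96, 17.65 and 25.1 CPM in CAST brains and 4.28, 6.11 and 10.98 CPM in WSB. CAST_201 and CAST_203 were the highest. No WSB animal reached the lowest CAST animal, and WSB_120 came nearest to it. The log2 fold change was 1.48 ± 0.23 (SE), and 1.38 to 1.68 across all alternative settings. Of 6 immediate early genes, which neuronal activity induces, Npas4 and Nr4a1 were called higher in CAST and none lower. Of all tested genes 21.5% were called higher and 21.2% lower. Their summed level was 516 to 1149 CPM in CAST brains and 393 to 1295 CPM in WSB, and none of the 6 was at 0. Within strains, Ptgs2 and this sum had a Pearson r of 0.66 in CAST (exact permutation p = 0.144, adjusted p = 0.770) and 0.46 in WSB (exact permutation p = 0.371, adjusted p = 0.814), neither of which passed. Spearman rho was 0.83 in CAST (exact permutation p = 0.0583, adjusted p = 0.311) and 0.09 in WSB (exact permutation p = 0.919, adjusted p = 0.981). Without the 2 animals farthest from the median sum, r was 0.23 in CAST and -0.29 in WSB. Their part in the Ptgs2 difference was not tested.

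Both prostaglandin D synthases were lower in CAST. Ptgds, the lipocalin-type synthase of leptomeninges, choroid plexus and oligodendrocytes (ENSMUSG00000015090, chr2:25466709-25470046), was at 170, 230.3 and 306.5 CPM in CAST brains and 325, 357 and 482 CPM in WSB. CAST_142 was the highest CAST animal and lay below WSB_169, the lowest WSB animal. The log2 fold change was -0.68 ± 0.15 (SE), and -0.76 without CAST_142 and WSB_100. The summed markers of these 3 cell types overlapped between strains. Their called genes are counted here beside shares of 21.5% higher and 21.2% lower over all tested genes. Leptomeningeal markers summed to 44.2 to 90.0 CPM in CAST brains and 64.7 to 89.9 CPM in WSB (1 of 8 tested higher, 2 lower; Igf2 and Ogn at 0), choroid plexus markers to 139 to 536 CPM in CAST brains and 56.6 to 728 CPM in WSB (0 of 6 higher, 1 lower; Kcnj13 at 0), and oligodendrocyte markers to 2947 to 3887 CPM in CAST brains and 2120 to 5041 CPM in WSB (0 of 8 called). Within CAST, Ptgds and leptomeningeal levels had a positive correlation (Pearson r = 0.81, exact permutation p = 0.0681 and adjusted p = 0.544, with a Spearman rho of 0.83 and exact permutation p = 0.0583, adjusted p = 0.311), which did not pass, and r was 0.79 without CAST_170 and CAST_203, the farthest from the median. Within WSB Pearson r came to 0.24, with an adjusted p of 0.814 by exact permutation (raw p = 0.654). Spearman rho there came to 0.37, with an adjusted p of 0.752 by exact permutation (raw p = 0.497). Leaving out WSB_135 and WSB_147 put r at -0.03. With choroid plexus markers Ptgds had a Pearson r of -0.58 in CAST and -0.19 in WSB. With oligodendrocyte markers it was 0.19 in CAST and -0.22 in WSB, and none of these passed. The part of these cell types in the Ptgds difference was not tested. In whole tissue, fewer cells of a type and less RNA per cell cannot be told apart. Hpgds, the hematopoietic-type synthase outside the 10, lowest in CAST_142, was at 3.90 ± 0.905 CPM in CAST brains and 10.1 ± 0.890 CPM in WSB (SD, n = 6 each; log2 fold change -1.38, adjusted p = 7.43e-06 by edgeR).

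Of the 3 prostaglandin E synthases, Ptges and Ptges2 overlapped between strains. Ptges, the inducible microsomal enzyme coupled to Ptgs2 (ENSMUSG00000050737, chr2:30889471-30929863), was at 5.16, 5.99 and 6.41 CPM in CAST brains and 4.83, 6.998 and 8.04 CPM in WSB. WSB_138 held the lowest value of all 12 animals, and the log2 fold change was -0.23 ± 0.11 (SE). Ptges was not called in the full data and was called without WSB_138, when the change was -0.31. Ptges2, a membrane-associated form (ENSMUSG00000026820, chr2:32395896-32405772), was at 27.6, 28.7 and 30.1 CPM in CAST brains and 26.2, 28.4 and 30.4 CPM in WSB, with a log2 fold change of 0.01 ± 0.05 (SE). Its coefficient of variation, 3.40% in CAST brains and 5.87% in WSB, was the smallest of the 10 in each strain.

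Ptges3, the cytosolic prostaglandin E synthase that is also p23, a co-chaperone of Hsp90 (ENSMUSG00000071072, chr10:128058954-128077272), had more reads in CAST. It was at 59.98, 62.1 and 66.75 CPM in CAST brains and 32.8, 34.8 and 38.55 CPM in WSB, a log2 fold change of 0.84 ± 0.05 (SE). The strains were far apart and each varied little. This count is uncertain, because the processed pseudogene Ptges3-ps (ENSMUSG00000040078, chr6:85843980-85844459) is a copy of part of it, and all 449 of the 32-mers of Ptges3-ps occur in Ptges3. Ptges3-ps had 61 reads and 0.238 ± 0.0422 CPM in CAST, and 8690 reads and 36.4 ± 2.285 CPM in WSB (SD, n = 6 each). The summed level of both was 60.2, 62.3 and 67.0 CPM in CAST brains and 67.0, 70.0 and 77.4 CPM in WSB, so the highest CAST animal lay just under the lowest WSB animal. With the reads of both added before the fit, a choice made after the values were seen, the log2 fold change was -0.18 ± 0.04 (SE), the opposite direction. Which of the 2 loci the WSB reads came from cannot be told from these counts, and no direction is given for Ptges3.

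**Figure D3:**
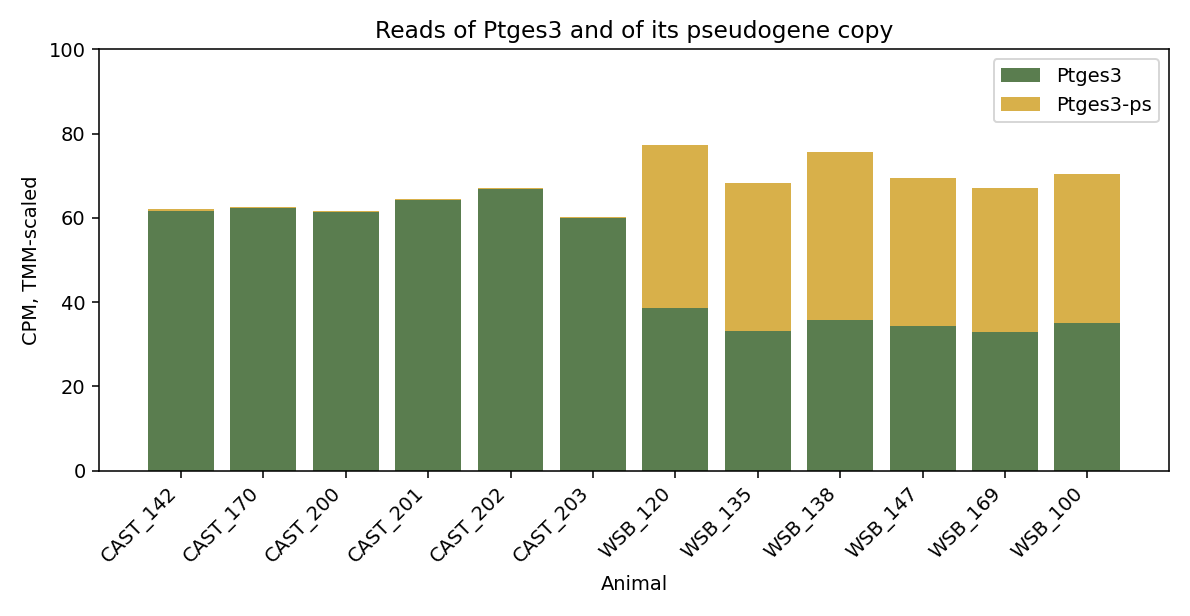
Stacked CPM of Ptges3 and its processed pseudogene Ptges3-ps in each animal (y axis, CPM; x axis, the 6 CAST animals, then the 6 WSB animals). Ptges3-ps adds at most 0.294 CPM in CAST brains and 34.2 to 39.7 CPM in WSB, and the stacks reach 60.2 to 67.0 CPM in CAST brains and 67.0 to 77.4 CPM in WSB.

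The prostacyclin and thromboxane synthases, both cytochrome P450 enzymes with opposite effects on vessels and platelets, also differed from each other. Ptgis, prostacyclin synthase (ENSMUSG00000017969, chr2:167191805-167240604), was at 12.8, 22.1 and 24.9 CPM in CAST brains and 46.4, 69.1 and 91.5 CPM in WSB. CAST_142 and CAST_202 were the lowest of all, and WSB_138 was the lowest WSB animal, still well above every CAST animal. The log2 fold change was -1.77 ± 0.18 (SE), and -1.65 without CAST_142 and WSB_100. Ptgis overlaps 1110018N20Rik, a gene of the other strand. With the reads of that gene added, the change was -1.61 ± 0.17 (SE). This sum cannot bring back reads left uncounted where the bodies overlap, so it is no check on the Ptgis value. Mural cell markers, genes of the pericytes and smooth muscle around vessels, were also lower in CAST at 4 of 8 tested, namely Rgs5, Vtn, Abcc9 and Pdgfrb, and higher at 0. Of all tested genes 21.2% were lower and 21.5% higher. The 8 markers summed to 129 to 153 CPM in CAST brains and 215.5 to 241 CPM in WSB, which did not overlap, and no marker was at 0. Rgs5, at 45.8 ± 4.03 CPM in CAST brains and 117 ± 9.20 CPM in WSB (SD, n = 6 each), made up the largest part of this gap. Acta2, Notch3, Myh11 and Kcnj8 were not called, with log2 fold changes of 0.34, 0.15, 0.03 and -0.07. The part of the mural cell markers in the Ptgis difference was not tested. Inside each strain the correlation of Ptgis with this sum was negative and did not pass, with a Pearson r of -0.37 in CAST (exact permutation p = 0.478) and -0.40 in WSB (exact permutation p = 0.403), both with an adjusted p of 0.814. Spearman rho was -0.77 in CAST (exact permutation p = 0.103, adjusted p = 0.411) and -0.31 in WSB (exact permutation p = 0.564, adjusted p = 0.752). Without the 2 animals farthest from the median sum, r was -0.98 in CAST and 0.22 in WSB. With leptomeningeal markers Ptgis had a Pearson r of -0.52 in CAST and -0.10 in WSB, neither of which passed. Spearman rho for that pair was -0.83 in CAST (exact permutation p = 0.0583, adjusted p = 0.311) and -0.37 in WSB (exact permutation p = 0.497, adjusted p = 0.752).

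Tbxas1, thromboxane synthase, a gene of microglia and platelets (ENSMUSG00000029925, chr6:38875404-39084585), was at 3.61, 4.01 and 4.56 CPM in CAST brains and 3.56, 4.19 and 4.96 CPM in WSB. The log2 fold change was -0.06 ± 0.10 (SE), and 65.7% of its body is free of other genes. The main one it overlaps, Hipk2, was at 139 ± 11.3 CPM in CAST brains and 129 ± 11.04 CPM in WSB (SD, n = 6 each). Microglial markers were lower at 5 of 10 tested and higher at 1 (P2ry12 and Itgam at 0), beside 21.2% and 21.5% of all tested genes. They summed to 156 to 262 CPM in CAST, lowest in CAST_142, and 243 to 268 CPM in WSB. Within CAST, Ptgs1 correlated with them before adjustment (Pearson r = 0.80, exact permutation p = 0.0319 and adjusted p = 0.511, with a Spearman rho of 0.54 and exact permutation p = 0.297, adjusted p = 0.679), but r was -0.07 without CAST_142 and CAST_202. Within WSB that r was 0.19 (rho 0.03; exact permutation p 0.681 for r). Tbxas1 and the microglial sum had a Pearson r of 0.26 in CAST (exact permutation p = 0.644) and 0.10 in WSB (exact permutation p = 0.856). None of the 16 relations computed, 8 per strain, passed adjustment.

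Hpgd (ENSMUSG00000031613, chr8:56294585-56321043), the first enzyme of prostaglandin breakdown, was scarce in both strains. Its lowest, median and highest values were 0.729, 0.978 and 1.28 CPM in CAST brains and 3.11, 3.57 and 6.24 CPM in WSB, from 256 reads in CAST brains and 941 in WSB. WSB_100 stood above the other WSB animals, the next being 4.10 CPM, and every WSB animal was above every CAST animal. The log2 fold change was -1.99 ± 0.20 (SE), and -1.78 without CAST_142 and WSB_100. None of its 32-mers occurs in another gene's transcripts.

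Levels can be set side by side per length, and the order depends on the length used. On the scale of CPM per kb of merged exons, Ptgds led in both strains, at 143 ± 32.9 in CAST brains and 228 ± 35.1 in WSB (SD, n = 6 each). In CAST it was followed by Ptges3 (28.3), Ptgis (7.92), Ptges2 (5.68), Ptgs2 (4.08), Ptgs1 (3.40), Ptges (1.49), Hpgd (0.587), Tbxas1 (0.449) and Fam213b (0.0177), in CPM per kb. Neighbours in this CAST order overlapped at Ptgis and Ptges2, Ptges2 and Ptgs2, Ptgs2 and Ptgs1, and Hpgd and Tbxas1. Full lengths were used, although only 77.6% of the exon bases of Tbxas1 are free of other genes, against 100% for Hpgd. The level of Tbxas1 per length may therefore be understated. In WSB the order after Ptgds was Ptgis (27.0), Fam213b (23.1), Ptges3 (15.8), Ptges2 (5.62), Ptgs1 (3.48), Hpgd (2.35), Ptges (1.74), Ptgs2 (1.46) and Tbxas1 (0.468), in CPM per kb. Here Ptgis overlapped Fam213b, and Ptgs1, Hpgd, Ptges and Ptgs2 overlapped in turn. Fam213b stood at place 10 in CAST and place 3 in WSB (place 4 with the reads of Ptges3-ps added to Ptges3, which then came to place 2 in WSB at 32.2 CPM per kb), and Ptgs2 at place 5 in CAST and place 9 in WSB. With the whole gene body as length, Ptgis stood at place 6 in CAST and place 5 in WSB. Ptgs2 then stood at place 4 in CAST and place 6 in WSB, and Fam213b at place 10 in CAST and place 2 in WSB. No source used here says whether intronic reads were counted. Yet Ogn, Tubb3 and Dpep1 were at 0, with 100% of their exon bases outside other exons but their bodies inside other genes. Counting over exons alone would have kept reads in those exons, so the gene body is the closer match to these counts.

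Other genes of prostanoid and related lipid metabolism were taken from lists made by role. Of 72 such genes 55 were tested, and 18 were higher and 17 lower in CAST, or 63.6% called, beside 42.7% of all tested genes (21.5% higher and 21.2% lower). A further 10 were too low, and Pla2g4b, Pla2g2a, Akr1b3, Ptger1, Ptger2, Dpep1 and Dpep2 were listed at 0 in all animals. Each of these 7 lies wholly inside other listed genes, so whether it is expressed cannot be told from these counts. The median log2 fold change of the tested genes was 0.04.

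Among enzymes that release arachidonic acid or its precursors, 4 of 10 tested were higher and 4 lower. Pla2g12a, a secreted phospholipase A2, was at 12.2 ± 0.423 CPM in CAST brains and 20.2 ± 0.927 CPM in WSB (SD, n = 6 each; log2 fold change -0.73, adjusted p = 2.62e-08 by edgeR). Pla2g10, another secreted form, was higher (1.89 CPM in CAST brains and 0.880 CPM in WSB, log2 fold change 1.10, and 0.69 on lane 5 alone), and Pla2g6, the calcium-independent form, was slightly lower (-0.21). Pla2g3 was lower by a log2 fold change of -0.91, and CAST_142 stood above the other CAST animals. Only 58.3% of the exon bases of Pla2g10 and 73.3% of those of Pla2g3 are free of overlapping genes, which leaves these counts uncertain. Of 9 enzymes that make or cleave the endocannabinoid precursors of prostamides, 3 were higher and 1 lower. Naaa, a lysosomal acid amidase for N-acylethanolamines, was at 34.1 ± 4.64 CPM in CAST, highest in CAST_142, and 20.4 ± 1.12 CPM in WSB (SD, n = 6 each; log2 fold change 0.74, adjusted p = 4.91e-06 by edgeR). The lipases Abhd6 and Abhd4 were 0.22 and 0.23 higher and Gde1, a glycerophosphodiesterase, fell by 0.14 on the log2 scale.

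Among the other synthases and reductases 1 of 5 tested was higher and 4 lower. Besides Hpgds, Cbr1, a carbonyl reductase that can turn prostaglandin E2 into F2alpha, highest in WSB_138, was at 25.6 ± 2.03 CPM in CAST brains and 36.1 ± 2.90 CPM in WSB (SD, n = 6 each; log2 fold change -0.49, adjusted p = 3.62e-05 by edgeR). Akr1c18, an aldo-keto reductase that inactivates progesterone, was lower at -2.46, with WSB_100 alone at 3.25 CPM, and the change was -1.27 without CAST_142 and WSB_100. Gstm2, a glutathione transferase, was higher by 0.70 on the log2 scale at under 1 CPM in each strain. The relatives of Fam213b had reads in both strains. Of 8 peroxiredoxin-type genes, 3 were higher and 3 lower, with log2 fold changes from -0.25 to 0.31. Fam213a, a paralog that was highest in WSB_138, was at 73.9 ± 5.14 CPM in CAST brains and 84.6 ± 7.27 CPM in WSB (SD, n = 6 each; log2 fold change -0.20, adjusted p = 0.0203 by edgeR). Prdx1 and Prdx4, antioxidant peroxidases, were 0.31 and 0.28 higher, and Prdx2 was lower at -0.25 on the same scale. Gde1, Gstm2, Prdx1 and Prdx2 have 11.5% to 16.1% of their 32-mers in common with further genes, which leaves these counts uncertain.

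Of the prostanoid receptors 1 of 5 tested was higher and 2 lower. Ptger4, the EP4 receptor for prostaglandin E2, was at 60.5 ± 4.73 CPM in CAST brains and 37.8 ± 3.34 CPM in WSB (SD, n = 6 each; log2 fold change 0.68, adjusted p = 1.99e-06 by edgeR), but 15.2% of its 32-mers also occur elsewhere and 50.05% of its exon bases are free of overlapping genes. Ptger3, the EP3 receptor, was at 4.33 ± 1.22 CPM in CAST brains and 9.24 ± 0.870 CPM in WSB (SD, n = 6 each; log2 fold change -1.09, adjusted p = 9.78e-05 by edgeR). The prostaglandin D2 receptor Ptgdr was lower at -0.66, at under 1 CPM on average and highest in WSB_169. It was not called on lane 5 alone, and 27.0% of its 32-mers are shared. Of 5 genes for uptake, export and inactivation 2 were higher and 1 lower. Ptgr1, a reductase of 15-keto prostaglandins downstream of Hpgd, was at 3.67 ± 0.0415 CPM in CAST brains and 1.15 ± 0.240 CPM in WSB (SD, n = 6 each; log2 fold change 1.66, adjusted p = 1.89e-07 by edgeR). Its relative Ptgr2 was lower at -0.34, sharing 31.6% of its 32-mers with other genes. Slco2a1, the prostaglandin uptake transporter, was higher by 0.34 (adjusted p = 0.0317 by edgeR), with CAST_142 the lowest CAST animal, a call lost without CAST_170, CAST_200, CAST_201, CAST_203, WSB_135, WSB_138 or WSB_100.

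In the leukotriene and lipoxygenase branch, which competes for the same arachidonic acid, 4 of 13 tested genes were higher and 2 lower. Alox8, a mouse arachidonate lipoxygenase, was at 12.4 ± 1.37 CPM in CAST brains and 4.48 ± 0.687 CPM in WSB (SD, n = 6 each; log2 fold change 1.47, adjusted p = 1.44e-07 by edgeR). Lta4h, leukotriene A4 hydrolase, was higher by 0.29, Ggt1, a gamma-glutamyl transferase, by 0.63, and the receptor gene Cysltr2 was lower at -1.69 on the log2 scale. Cysltr2 was scarce and variable, at 0.515 ± 0.214 CPM in CAST brains and 1.68 ± 0.662 CPM in WSB (SD, n = 6 each).

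**Figure D4:**
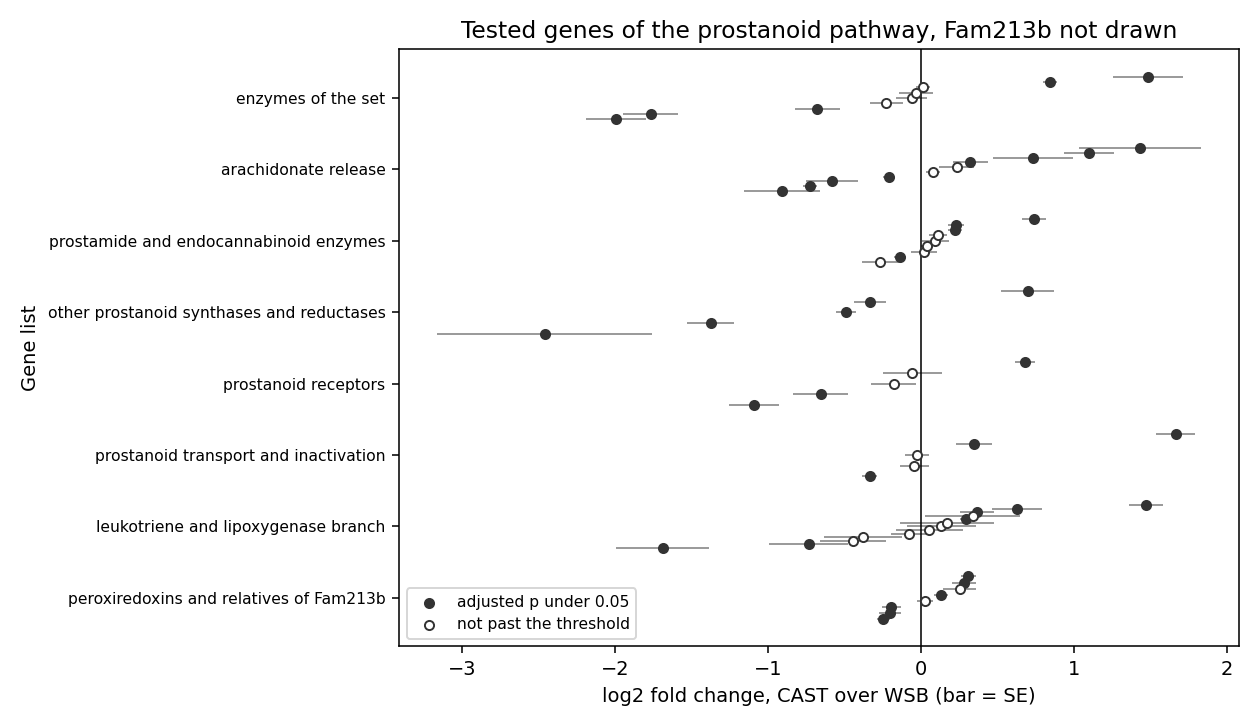
log2 fold change, CAST over WSB (x axis; bars, SE), of 9 of the 10 genes of the set and of the 55 tested genes on lists of related pathways (rows), with called genes filled. Fam213b, at -10.05, is not drawn; the other points lie between -2.46 and 1.66.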

How the data were processed

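The authors deposited, for each animal and lane, raw read counts listed by Ensembl gene identifier. HTSeq, TopHat2 2.1.1, DESeq2 and cutadapt are named, with no role, in the submitters' processing notes. No source used here gives the build, the gene models or the strand handling, nor whether intronic reads were counted. Of 5901 genes lying wholly inside genes of the other strand alone, 99.6% had no read, so few or no reads where gene bodies overlap appear in these counts. Symbols and coordinates come from GENCODE M21 (GRCm38), promoters from RefSeq. Counters that name no gene were kept out, and 62.9% to 68.0% of alignments per animal fell in genes.

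The 10 genes, the lists and the named-gene rule were chosen with earlier results of these data known. The rule named all 10, up to 4 called genes of each list with the smallest p, tested neighbours within 250 kb of Fam213b, and the 5 genes with a mean log2 CPM of at least 1 most like Fam213b. Hipk2, 1110018N20Rik, Ptges3-ps and marker genes were added for overlap, copies or cell types.

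Strains were compared with edgeR 4.0.16 (R 4.3.3), TMM scaling, the default expression filter by strain and the robust quasi-likelihood test. Fold changes are CAST over WSB, and the SE is the log2 fold change divided by the square root of F. The labels number the animals and say no more of their origin, so p-values measure the spread between animals as labelled. Shared sequence was measured as transcript 32-mers found in other GENCODE M21 transcripts. Within-strain relations used log2 CPM with exact two-sided permutation of pairings. The test was checked on simulated counts with 200 genes changed, far fewer than were called in the data. It recovered 68% of genes changed 1.5-fold, 84% at 2-fold, 98% at 4-fold and 100% at 0.25-fold, with 14 false calls. The changed genes were drawn from those with a mean of at least 1 CPM, so these rates do not cover scarcer genes such as Akr1c18, Gstm2 and Ptgdr. Alternatives were other scalings, DESeq2 1.42.0, no low-count filter, single lanes, each animal left out, CAST_142 and WSB_100 left out, and gene body as length. In a further one the reads of Ptges3-ps were added to Ptges3 and those of 1110018N20Rik to Ptgis. Further marker lists gave, of tested genes, 1 higher and 2 lower of 6 for endothelium, 1 and 0 of 2 for leukocytes, 1 and 0 of 3 for erythroid and platelet genes, 2 and 0 of 2 for cerebellar granule cells, and none of 5 for neurons and of 5 for striatum. Over all tested genes the shares were 21.5% higher and 21.2% lower.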

Additional observations from a re-analysis of the deposited data

Results flagged for a closer look

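Dixon's criterion was applied, strain by strain, to each of the 10 genes, each named pathway gene and each marker sum. It marked an animal as far from the other 5 in 16 of 96 groups; about 1 in 20 is the chance rate. Among the 10 genes these were Fam213b in CAST_170 (0.0638 CPM, from 3 reads) and in WSB_100 (19.6 CPM, low), Ptges in WSB_138 (4.83 CPM, low) and Hpgd in WSB_100 (6.24 CPM, high). In CAST_142 they were Pla2g3 (4.43 CPM), Naaa (43.3 CPM), Hpgds (2.1 CPM), Slco2a1 (11.9 CPM), the summed microglial markers (156 CPM) and the summed cerebellar granule cell markers (1226 CPM). The granule cell sum was also high in WSB_120 (26.1 CPM), and erythroid and platelet genes were high in CAST_170 (149 CPM). In WSB_138 they were Cbr1 (41.5 CPM) and Fam213a (99.0 CPM), in WSB_100 Akr1c18 (3.25 CPM), and in WSB_169 Ptgdr (1.14 CPM).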

How the results depend on the processing

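Over 20 alternatives, 6 of the 10 genes were called in each, and the same 6, except that Ptges made 7 without WSB_138. Called genes in all numbered 7866, between 6567 on lane 6 alone and 9564 with DESeq2, and those of the pathway lists 28 to 36. The log2 fold change of Fam213b ran from -10.88 to -9.67. The single reversal was Ptges3, at -0.18 with the reads of Ptges3-ps added, an alternative chosen after the values were seen. For 30 of 37 other named genes no alternative that gave a value moved the call; Akr1c18, one of them, gave none under 3, namely DESeq2 and each single lane. Ptgs1, Ptges2, Plch2, Pank4 and Pex10, none called in the full data, changed sign at values near 0 in at least 1 alternative. With the whole gene body as length, 6 of the 10 kept their place in the order of levels in CAST brains and 4 in WSB. No paired analysis was possible because the strains share no animal number. Single lanes left 17007 and 16952 genes to test, against 18425. Ptgdr, Slco2a1 and Mmel1 were not called on lane 5 alone nor Hes5 on lane 6 alone, and Pla2g10 was at 0.69 on lane 5 and 1.58 on lane 6; the part of depth was not tested. Within-strain relations rest on 6 animals each.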
